A study of Mus musculus with 6 samples.

Results

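Transcription factors of the Schwann cell lineage were described in RNA sequencing of 6 cultures grown from mouse dorsal root ganglia, which hold sensory neurons and their glia next to the spinal cord. The members were 10 genes, Sox10, Foxd3, Pax3, Tfap2a, Zeb2, Sox2, Jun, Id2, Pou3f1 and Egr2, found by symbol among the 45703 genes of the count table. All 6 cultures belonged to 1 group: wild-type C57BL/6 mice, adult and aged 4 to 6 weeks, with cells kept 7 days in vitro on poly-L-lysine in medium with EGF, FGF (10 ng/ml each) and 10% fetal calf serum. RNA was pooled from 2 dishes per culture, and the labels call the cultures biological replicates without saying whether they shared animals. The libraries held 20070639 to 22968642 estimated counts each. The design has no second condition, so levels were compared between genes within a culture and between the 6 cultures.

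Schwann cells, the glia of peripheral nerves, arise from the neural crest. SOX10 is needed to specify and keep the lineage, and FOXD3, PAX3 and TFAP2A act early in the neural crest and its glial precursors. In development POU3F1 (also called OCT6) and SOX10 switch on EGR2 (also called KROX20), the master activator of myelin genes, while ZEB2 represses inhibitors of myelination. SOX2, JUN and ID2 are linked with the immature or injured state and oppose myelin gene expression, and JUN drives the repair programme of Schwann cells after nerve injury.

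Cell type markers showed a mixed culture. The summed level of 6 glial lineage markers lay between 3882 CPM (the count per 1000000 counts of the library) and 5826 CPM, and that of 6 neuronal markers between 851 and 1708 CPM. Markers of other cells differed more: 6 fibroblast genes summed to 3338 CPM in culture 1 and 13967 CPM in culture 5, 6 macrophage genes to 15.0 and 149 CPM, 6 endothelial genes to 8.14 and 116 CPM, and 6 mural genes to 274 and 1541 CPM. For the sum of each of these 4 lists culture 1 was the lowest and culture 5 the highest. Pigment cells share SOX10 and PAX3 with glia. Of 8 melanocyte genes, Dct, Tyr, Mlana and Slc45a2 had at most 3 counts in every culture, and the list summed to between 17.4 and 39.1 CPM, of which Tyrp1 made 22.7 CPM in culture 1.

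Levels between genes were compared as CPM per kilobase of combined exon length, CPM per kb. By the mean of the 6 cultures the order was Sox10, Jun, Zeb2, Id2, Sox2, Foxd3, Egr2, Tfap2a, Pou3f1 and Pax3, from 240.2 ± 32.2 CPM per kb for Sox10 to 0.132 ± 0.0807 CPM per kb for Pax3 (SD, n = 6, as for all means here). The median over the 14998 genes kept by the filter on low counts was 7.20 CPM per kb, and 99.0% of them lay below Sox10. Of the 45 pairs of members, 43 stood in the same order in all 6 cultures, each with an adjusted p of 0.0327 (two-sided exact sign-flip permutation test within cultures, raw p = 0.0312, the smallest that 64 sign patterns allow, adjusted over the 45 pairs). Any pair of genes in 1 order in all 6 cultures gets this raw p, and the share over all pairs of genes was not computed. The 43 pairs are therefore not read as a feature of the members. The 2 exceptions were neighbours in the order. Id2 exceeded Sox2 in 5 of 6 cultures, by 0.49 ± 0.36 on the log2 scale (exact permutation p = 0.0625, adjusted p = 0.0639). Foxd3 exceeded Egr2 in 4 of 6 cultures, by 0.36 ± 0.55 on the log2 scale (exact permutation p = 0.188, adjusted p = 0.188).

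**Figure D1:**
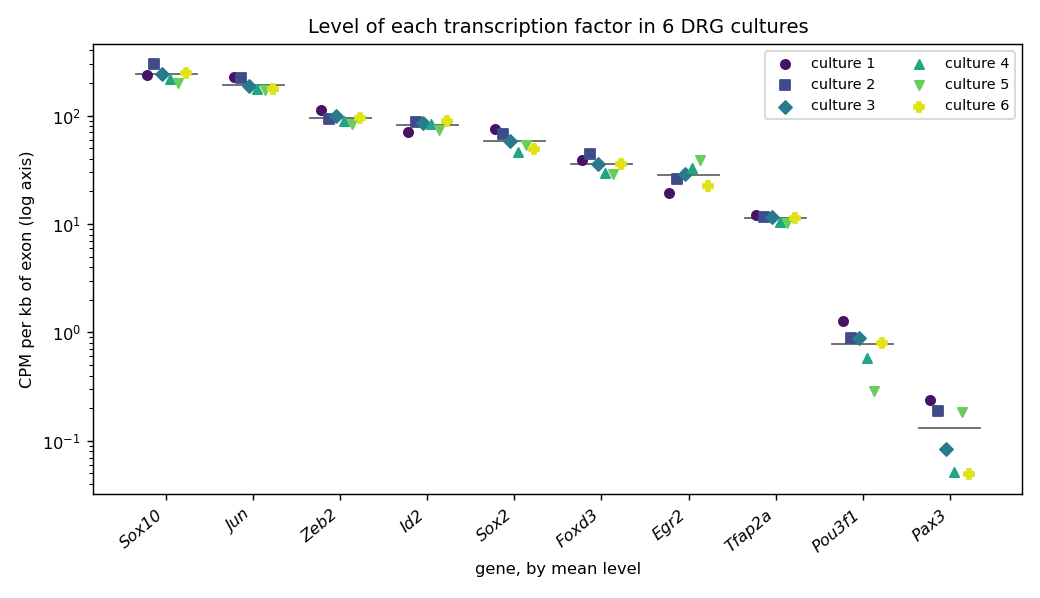
Level of each of the 10 transcription factors in CPM per kb of exon on a log axis, 1 point per culture, with a line at the mean of the 6 cultures. Sox10 and Jun lie highest, Pou3f1 and Pax3 lowest, and Pou3f1 is spread from 0.286 to 1.29 CPM per kb.

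Of the 5 members with a promoter window outside the gene, the sequences of Jun, Foxd3 and Sox2 are shown. Each held at least 1 match to the motifs searched. The windows of Zeb2 and Id2 did too, so a match does not set the shown ones apart. Pearson's r across cultures was positive between Jun, Foxd3 and Sox2. It was also positive for Zeb2 with Jun (0.73), Sox2 (0.70) and Foxd3 (0.62). For Id2 it was -0.12 with Jun, -0.30 with Sox2 and 0.37 with Foxd3. None of these relations passed adjustment, and any link between the matches and the relations was not tested. The table of promoter windows from RefSeq (GRCm38.p6) matched 7 of the 10 members; Sox10, Pou3f1 and Pax3 had no entry. The windows of Egr2 and Tfap2a lay inside the deposited gene and are not shown. Those of Zeb2 and Id2 lay outside it but are not shown either, and their matches are given below. Each line gives the 250 bases before the start site, 5′ to 3′ on the gene's strand. Capitals mark matches on either strand to TGACNTCA, a site bound by dimers of JUN with ATF proteins, to ACAANG, the core bound by SOX proteins, and to CCAAT, a common promoter element.
Jun, chr4:95052223-95052472, minus strand: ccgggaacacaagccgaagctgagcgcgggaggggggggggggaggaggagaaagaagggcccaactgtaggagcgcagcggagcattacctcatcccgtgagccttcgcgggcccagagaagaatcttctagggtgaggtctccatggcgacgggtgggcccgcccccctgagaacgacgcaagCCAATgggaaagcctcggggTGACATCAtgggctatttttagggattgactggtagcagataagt
Foxd3, chr4:99656049-99656298, plus strand: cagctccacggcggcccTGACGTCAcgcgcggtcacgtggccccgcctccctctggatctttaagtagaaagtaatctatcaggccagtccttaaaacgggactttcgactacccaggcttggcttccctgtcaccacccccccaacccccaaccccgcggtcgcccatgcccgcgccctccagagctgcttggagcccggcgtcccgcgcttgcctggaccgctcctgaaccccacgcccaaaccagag
Sox2, chr3:34649745-34649994, plus strand: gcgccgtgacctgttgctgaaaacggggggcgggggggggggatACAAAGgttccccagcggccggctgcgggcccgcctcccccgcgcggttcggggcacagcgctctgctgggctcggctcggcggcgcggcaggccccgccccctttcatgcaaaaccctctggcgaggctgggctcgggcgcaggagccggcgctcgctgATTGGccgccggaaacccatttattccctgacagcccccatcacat

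Jun and Foxd3 each held 1 match to TGACNTCA, which 7.49% of all 32851 promoter windows of this length held. Sox2 held 1 match to ACAANG, present in 36.3% of windows. Jun and Sox2 each held 1 match to CCAAT, present in 33.8%. The search also covered TGANTCA, present in 6.75% of windows, GCGNGGGCG, the EGR site, in 4.7%, and TATAAA in 12.4%, none of which matched in these 3 windows. Jun and Foxd3 each held 1 match to CANNTG, the E-box, which 66.2% of windows held. The windows of Zeb2 and Id2, not shown, held 2 and 3 matches to CCAAT. Id2 also held 1 match to CANNTG, and neither held TGACNTCA or ACAANG. A match describes letters in a window and not binding.

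Of the lineage and neural crest factors, Sox10 (chromosome 15, 79154913 to 79164490, GRCm38.p6 as for all positions) was counted at 648, 804, 650.4, 595, 544 and 668 CPM in cultures 1 to 6, a mean of 652 ± 87.5 CPM. Culture 2 was the highest and culture 5 the lowest, 1.48-fold apart. Foxd3 (chromosome 4, 99656299 to 99658671), a forkhead factor of neural crest and early glia, was counted at 91.7, 105.1, 84.6, 70.9, 68.5 and 85.1 CPM, again highest in culture 2 and lowest in culture 5. The ratio of Sox10 to Foxd3 in CPM per kb lay between 6.18 and 7.35 and varied 1.19-fold, the least of 6 ratios computed between members.

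Tfap2a (chromosome 13, 40713802 to 40738238), an AP-2 factor, was the steadiest member, at 78.8, 75.3, 75.4, 67.5, 65.7 and 74.0 CPM. Its coefficient of variation (CV, the SD as a percent of the mean) was 6.95%, and 20.9% of the tested genes had a lower one, against a median CV of 12.1%. Its counts were fractional in 5 of 6 cultures, and how such counts arose is not given in the sources used here. Pax3 (chromosome 1, 78101267 to 78197136), a paired-box factor of neural crest and muscle precursors, had 21, 16, 7, 4, 15 and 4 counts in cultures 1 to 6. Cultures 1, 2 and 5 were the highest, and Pax3 was the single member that the filter on low counts removed.

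Zeb2 (chromosome 2, 44983512 to 45117442), the zinc-finger repressor that relieves inhibitors of myelination, had the highest CPM of the members and the longest combined exons, 11707 bases. It was counted at 1323, 1084, 1149.6, 1053, 987 and 1121.5 CPM, highest in culture 1 and lowest in culture 5. Its mean level per length was 95.6 ± 9.79 CPM per kb, below Jun in every culture. The antisense gene Zeb2os reached 4.79 ± 0.572 CPM, 0.428% of Zeb2.

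Among the factors of the immature and repair state, Jun (chromosome 4, 95049036 to 95052222) was second only to Sox10 per length. Its level was 727, 706, 597.5, 558, 549.7 and 556 CPM, with cultures 1 and 2 above the other 4. Sox10 exceeded Jun in all 6 cultures by 0.31 ± 0.15 on the log2 scale of CPM per kb (exact sign-flip permutation, adjusted p = 0.0327). This call rests on the division by length: in CPM the difference was 0.08 (exact permutation, adjusted p = 0.262), with Jun above Sox10 in cultures 1 and 5. JUN is also an immediate early gene product in many cell types, and its source cell was not tested.

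Sox2 (chromosome 3, 34649995 to 34652461), the HMG-box factor of precursor and dedifferentiated Schwann cells, was counted at 185, 168, 145, 114, 133 and 121 CPM. Cultures 1 and 2 were again the highest, and culture 4 the lowest. Sox2 lies inside Sox2ot, a long non-coding gene on the same strand that reached 134.9 ± 21.7 CPM, so reads of the shared stretch could be given to either gene. Id2 (chromosome 12, 25093799 to 25096092), an inhibitor of basic helix-loop-helix factors, was counted at 89.1, 111.0, 109.2, 105.8, 93.5 and 113.4 CPM. Unlike the preceding members, it was lowest in culture 1.

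The promyelin factors stood far apart in level, at 28.05 ± 7.07 CPM per kb for Egr2, the master activator, and 0.788 ± 0.337 CPM per kb for Pou3f1. Pou3f1 (chromosome 4, 124657646 to 124660655) had 89, 59, 58, 35, 18 and 50 counts in cultures 1 to 6, or 3.88 CPM in culture 1 and 0.860 CPM in culture 5, a 4.51-fold range. Egr2 (chromosome 10, 67534469 to 67542188) was counted at 73.2, 99.1, 110.3, 125.7, 147.0 and 85.6 CPM. Egr2 was therefore lowest in culture 1 and highest in culture 5, 2.01-fold apart, where Pou3f1 was highest in culture 1 and lowest in culture 5. The antisense-strand gene Gm32255 overlaps Egr2 and reached 13.5 ± 6.16 CPM.

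Ratios of Jun and Sox2 to Egr2 are given as a description, with no test. The ratio of Jun to Egr2 in CPM per kb was 11.9, 8.51, 6.47, 5.30, 4.47 and 7.75 in cultures 1 to 6. The ratio of Sox2 to Egr2 was 3.89, 2.62, 2.03, 1.40, 1.39 and 2.18. Per length, Jun and Sox2 exceeded Egr2 in every culture. In CPM this held for Jun but not for Sox2. Egr2 was above Sox2 in culture 4 (125.7 against 114 CPM) and in culture 5 (147 against 133 CPM). Both ratios per kb were highest in culture 1 and lowest in culture 5. These were the cultures with the lowest and highest summed fibroblast, macrophage, endothelial and mural markers. The part of those cells in the ratios was not tested. Jun itself with Egr2 had r = -0.64 and rho = -0.83 (exact permutation p = 0.163 and 0.0583, adjusted 0.317 and 0.154), and r was -0.12 without cultures 1 and 5. Sox10 to Egr2 ran from 12.4 in culture 1 to 5.197 in culture 5. Pou3f1 to Egr2 had the widest of these ranges, 9.05-fold, again highest in culture 1 and lowest in culture 5.

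Spread between cultures was larger than counting noise for all 9 members kept by the filter (chi-square test of the 6 counts, Benjamini-Hochberg adjusted over all genes). This test called 76.3% of the 14998 genes, so 9 of 9 members is no feature of the members. The largest adjusted p among them was 1.6e-08, for Tfap2a. The members' median CV was 13.4%, against 12.1% for all tested genes. The CV was 42.7% for Pou3f1, 25.2% for Egr2, 19.1% for Sox2, 16.1% for Foxd3, 13.4% for Sox10, 13.02% for Jun, 10.23% for Zeb2 and 9.63% for Id2.

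Relative to genes of similar abundance, edgeR's quasi-likelihood fit gave a ratio of the gene's spread to the trend. It was 10.5 for Egr2, 6.26 for Sox2, 5.91 for Pou3f1 and 5.43 for Foxd3, and between 0.649 and 1.81 for the other 5 members tested, with a median of 1.12 over all genes. Egr2 exceeded 93.6% of the tested genes on this measure, with an unadjusted p of 0.0597 from edgeR's fit. The fit called 0 of 14998 genes (0%) at an adjusted p under 0.05, and 809 had an unadjusted p under 0.05, none of them a member.

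Fibroblast genes had the highest summed level of the 4 lists that differed between cultures 1 and 5, and each member was set against a fibroblast score, the mean log2 CPM (scaled by the trimmed mean of M-values, TMM) of Col1a1, Col3a1, Col1a2, Pdgfra, Dcn and Lum. The score was 6.58, 7.86, 7.87, 8.87, 9.64 and 7.62 in cultures 1 to 6. Egr2 was the single member that was higher where the score was higher, and the other 9 had negative coefficients. In these bulk samples fewer cells of a type and less RNA per cell cannot be told apart. The summed macrophage, endothelial and mural markers were also lowest in culture 1 and highest in culture 5, though single genes differed. C1qa was highest in culture 4, and Myh11 and Cspg4 in culture 6. Pecam1 and Myh11 were lowest in culture 2 and Kdr in culture 3, and Cldn5 had 0 counts in cultures 2, 3 and 6. Among the genes of the score, Lum was highest in culture 4. At an unadjusted exact permutation p under 0.05, 6 of 6 tested macrophage genes, 3 of 4 endothelial and 3 of 6 mural genes were higher with the score. Of all tested genes 11.5% were, and none of these relations passed adjustment. The part of macrophages, endothelial and mural cells in the members' levels was not tested.

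Egr2 stood in the same rank order as the fibroblast score, with Pearson's r = 0.97 (exact permutation p = 0.00417, adjusted over all tested genes 0.131) and a Spearman's rho of 1 (p = 0.00278 by exact permutation, 0.203 after adjustment). Without cultures 1 and 5, the farthest from the median score, r was 0.89. For Zeb2, r was -0.97 (exact permutation p = 0.00278, adjusted 0.131) and rho was -0.94 (exact permutation p = 0.0167, adjusted 0.240). Without the same cultures, r of Zeb2 was -0.98. For Tfap2a, r was -0.95 (exact permutation p = 0.00417, adjusted 0.131) and rho was -0.94 (exact permutation p = 0.0167, adjusted 0.240), with r = -0.91 without the same cultures. For Pou3f1, r was -0.96 (exact permutation p = 0.00694, adjusted 0.136) and rho was -0.83 (exact permutation p = 0.0583, adjusted 0.352), with r = -0.89 without them.

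No member and no other gene passed the correction: 0 of 14992 genes had an adjusted p under 0.05 by either coefficient, and the smallest was 0.131 for r. With 720 pairings no exact permutation p can fall below 0.00139, which makes adjustment over so many genes severe. The 0 is therefore not read as an absence of relations. At an unadjusted exact permutation p under 0.05, 1 of 9 tested members was higher with the score, where 11.5% of all genes were, and 3 of 9 were lower, where 8.34% were. Leaving out culture 5 left 2 such members, Egr2 and Zeb2, while r stayed at -0.96 for Pou3f1 and was -0.91 for Tfap2a, and leaving out culture 2 gave 7, with Sox10, Foxd3 and Jun added. For the remaining members r was -0.58 for Sox10, -0.65 for Sox2, -0.74 for Foxd3, -0.71 for Jun, -0.19 for Pax3 and -0.04 for Id2, with exact permutation p between 0.0847 and 0.911. Leaving out culture 4 took Zeb2 to p = 0.0667 with r still at -0.97, and leaving out culture 1 gave Id2 r = -0.94 with p = 0.00833 (exact permutation, unadjusted). No batch is named in the labels, and none of these relations was split by one.

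**Figure D2:**
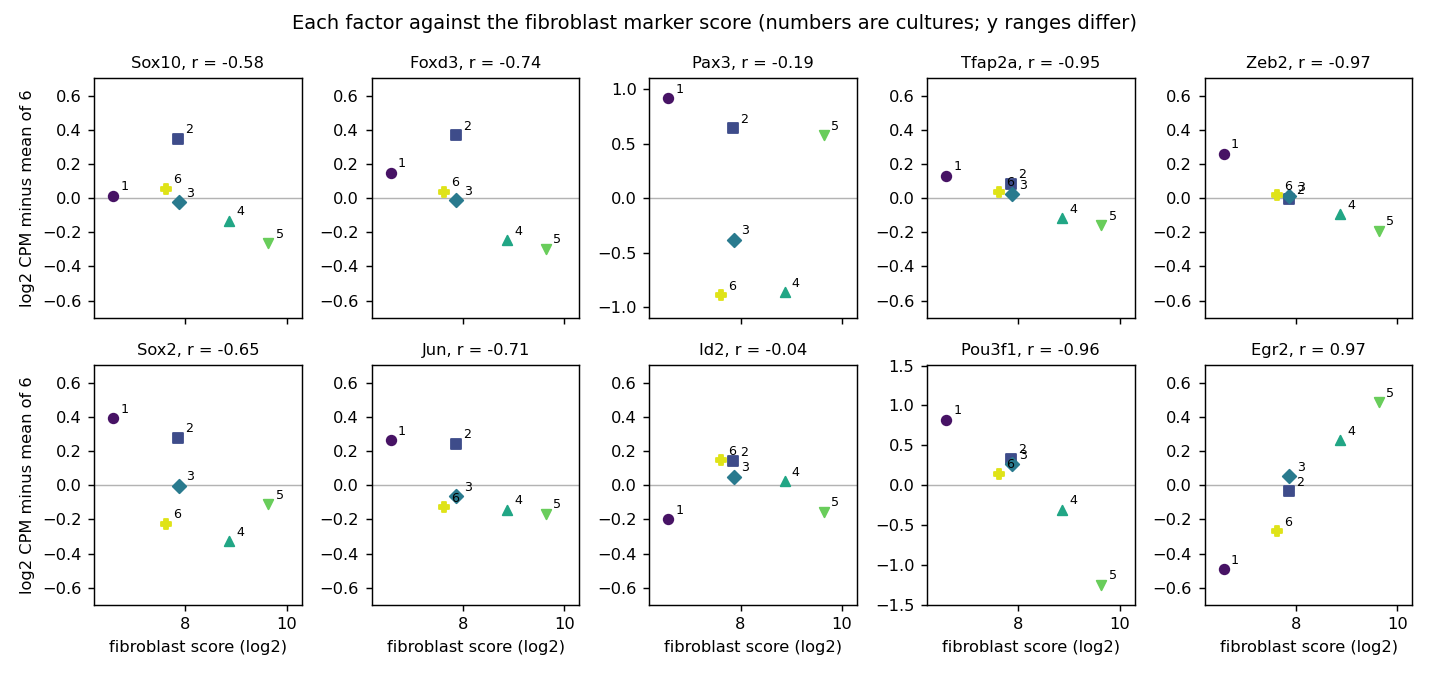
Each panel plots 1 factor, as log2 CPM with TMM scaling minus its mean over the 6 cultures, against the fibroblast marker score (log2); points are cultures, numbered. Egr2 is higher where the score is higher (r = 0.97), Zeb2, Tfap2a and Pou3f1 are lower (r = -0.97, -0.95 and -0.96), and Id2 is lowest in cultures 1 and 5, at both ends of the score (r = -0.04).

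Between members, 45 relations were computed across the 6 cultures, with 32 positive and 13 negative values of r. Egr2 was negative with all 9 other members. At an unadjusted exact permutation p under 0.05 there were 9 relations, and 0 passed adjustment over the 45, the smallest adjusted p being 0.0938. The share over all pairs of genes was not computed. With the fibroblast score, 2980 of all tested genes (19.9%) had such an unadjusted p. The 9 relations are therefore not read as a feature of the members. Sox10 with Foxd3 had r = 0.95 and rho = 0.94 (exact permutation p = 0.00417 and 0.0167, adjusted 0.0938 and 0.107). Without cultures 2 and 5, the farthest from the median of Foxd3, r was 0.88. Sox2 with Jun had r = 0.94 and rho = 0.83 (exact permutation p = 0.0111 and 0.0583, adjusted 0.1 and 0.154), and r was 0.58 without both cultures 1 and 2. With only culture 1 left out r was 0.90, and with only culture 2 left out it was 0.93 (exact permutation p = 0.0417 for each, unadjusted). Foxd3 with Jun had r = 0.85 and rho = 0.89 (exact permutation p = 0.05 and 0.0333, adjusted 0.193 and 0.150), and r was 0.72 without cultures 1 and 2. With single cultures left out, the unadjusted exact permutation p was 0.05 for Sox10 with Foxd3 without culture 4 and 0.0667 for Sox2 with Jun without culture 3.

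Tfap2a was positively related to several members. Foxd3 with Tfap2a had r = 0.90 and rho = 0.94 (exact permutation p = 0.0194 and 0.0167, adjusted 0.109 and 0.107), and r was 0.59 without cultures 4 and 5. Pou3f1 with Tfap2a had r = 0.94 and rho = 0.94 (exact permutation p = 0.00278 and 0.0167, adjusted 0.0938 and 0.107), and r was 0.90 without cultures 4 and 5. Egr2 with Zeb2 had r = -0.94 and rho = -0.94 (exact permutation p = 0.00833 and 0.0167, adjusted 0.1 and 0.107), and r was -0.83 without cultures 1 and 5. Without culture 4 the exact permutation p of Egr2 with Zeb2 was 0.0667. Tfap2a, Pou3f1, Egr2 and Zeb2 were also the genes with unadjusted relations to the fibroblast score, and no fit holding that score fixed was made.

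**Figure D3:**
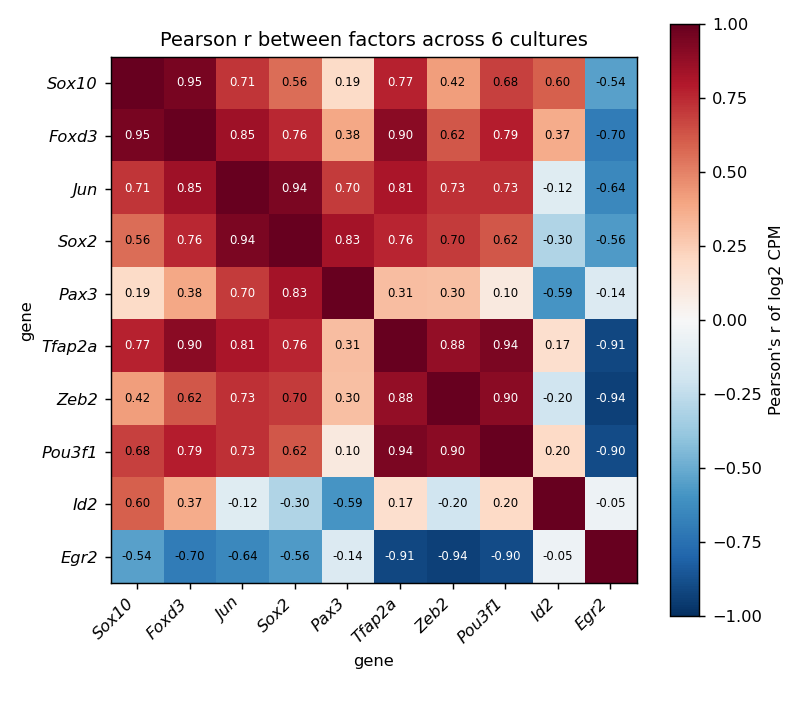
Pearson's r of log2 CPM for the 45 pairs of factors across 6 cultures, red for positive and blue for negative. Egr2 is negative with all 9 others, from -0.05 with Id2 to -0.94 with Zeb2.

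Other genes of the members' families were compared to place each member's level among its paralogues. Of 24 such genes, 7 had at most 3 counts in every culture: Foxd4, Egr4, Pax7, Tfap2b, Tfap2c, Tfap2d and Tfap2e. Each member was tested against the family gene with the highest mean CPM per kb, and 8 of the 10 differences had the same direction in all 6 cultures (two-sided exact sign-flip permutation, p = 0.0312, adjusted p = 0.0391 over the 10). The share over other pairs of genes was not computed here either. In 3 of the 8 the family gene had at most 4 counts in every culture (Pax7, with 0 in all, Tfap2e and Sox3), so the direction there says only that the member was detected, and no difference is given. Sox10 exceeded Sox8 by 7.64 ± 0.45 on the log2 scale, where Sox8 was at 1.15 ± 0.399 and Sox9, the other factor of its subgroup, at 1.11 ± 0.685 CPM per kb. Jun exceeded Junb by 4.15 ± 0.65 and Zeb2 exceeded Zeb1 by 2.56 ± 0.12 on the log2 scale. Foxd3 exceeded Foxd1 by 4.23 ± 1.62, beside Foxd1, which ranged from 0.610 CPM in culture 1 to 18.3 CPM in culture 5.

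The POU family was the reverse. Pou3f2 (also called BRN2), which acts beside POU3F1 in Schwann cells, exceeded Pou3f1 in all 6 cultures, Pou3f1 minus Pou3f2 being -2.72 ± 0.60 on the log2 scale (exact sign-flip permutation, adjusted p = 0.0391). Pou3f2 was at 29.95, 37.4, 36.4, 33.1, 29.7 and 35.4 CPM, with a CV of 9.82%, against 42.7% for Pou3f1. Its r with the fibroblast score was -0.25 (exact permutation p = 0.644, adjusted over all tested genes 0.809).

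For Egr2 and Id2 the family difference did not have 1 direction in all cultures. Egr2 exceeded Egr1 in 5 of 6 cultures, by 1.00 ± 1.33 on the log2 scale (exact sign-flip permutation p = 0.156, adjusted p = 0.156). In culture 5 Egr1, an immediate early gene, stood at 271.3 CPM, against 12.8 to 80.3 CPM in the other 5 cultures. Id2 was below Id3 in 5 of 6 cultures, with a difference of -0.35 ± 0.24 on the log2 scale (exact sign-flip permutation p = 0.0625, adjusted p = 0.0694). Of the 14 family genes tested against the fibroblast score, Sox9, Foxd1 and Junb were higher with it at an unadjusted exact permutation p under 0.05 and 0 were lower. Of all tested genes 11.5% were higher and 8.34% lower.

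**Figure D4:**
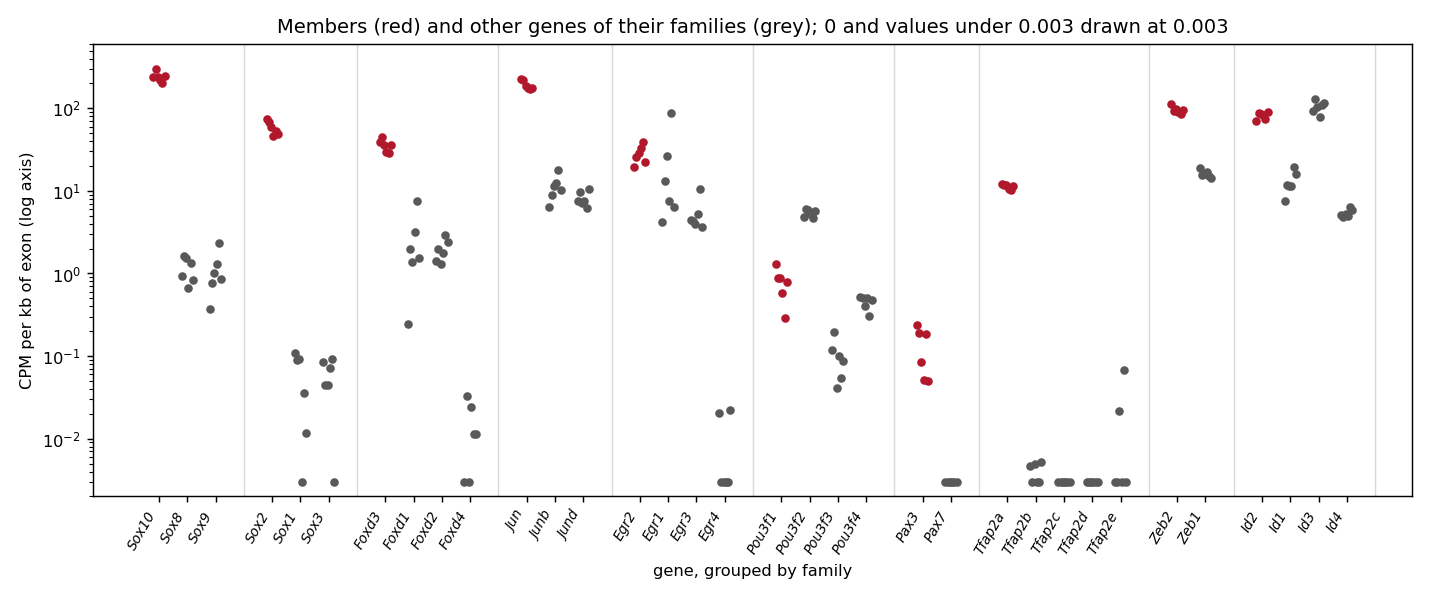
Members (red) and the other genes of their families (grey) in CPM per kb of exon on a log axis, 1 point per culture; values of 0 or under 0.003 are drawn at 0.003. Members lie above their family genes except for Pou3f2 above Pou3f1, Pou3f4 above Pou3f1 in culture 5, Id3 above Id2 in 5 cultures and Egr1 above Egr2 in culture 5.

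Partners of these factors were read from a list of 10 genes, all of which passed the filter, with a median CV of 7.87%. Nab1 and Nab2, corepressors that bind EGR proteins, were at 52.0 ± 4.08 and 39.7 ± 7.39 CPM. Tead1, with the coactivators Yap1 and Wwtr1 (TAZ) that act with SOX10 on myelin genes, was at 634 ± 63.2 CPM, and Wwtr1 and Yap1 at 258 ± 14.2 and 164 ± 8.99 CPM. Of the 10, Nfatc4 was higher and Tead1 lower with the fibroblast score at an unadjusted exact permutation p under 0.05, where 11.5% and 8.34% of all tested genes were. Nfatc4 ranged from 1.39 CPM in culture 1 to 16.1 CPM in culture 5.

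Myelin genes that EGR2 and SOX10 activate were read from a list of 12, of which 11 passed the filter, with a median CV of 35.4%. Mbp, myelin basic protein, was at 2090, 2442, 1534, 1508, 716 and 2050 CPM in cultures 1 to 6, lowest in culture 5, where Egr2 was highest. Pmp22 was at 599 CPM in culture 5 and between 1036 and 1512 CPM in the other 5. Cnp was at 400.3 CPM in culture 5 and between 570.3 and 748 CPM elsewhere. Mag and Fa2h were lowest in culture 5 too, but Prx, periaxin, was lowest in culture 1, and Gjb1, Drp2, Ncmap and Pllp in culture 2. Pllp was highest in culture 5, at 14.9 CPM. The summed glial lineage markers were also lowest in culture 5, at 3882 CPM against 5169 to 5826 CPM elsewhere, and their part was not tested. Mag, a protein of mature myelin, ranged from 1.86 to 8.27 CPM. Of the 11, 1 was lower with the fibroblast score at an unadjusted exact permutation p under 0.05 and 0 were higher. Over all tested genes 8.34% were lower and 11.5% higher. For Mbp r was -0.81 (exact permutation p = 0.0569, adjusted over all tested genes 0.259).

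Genes of the repair programme linked with JUN were read from a list of 12, of which 11 passed the filter, with a median CV of 33.1%. Ngfr, the low-affinity neurotrophin receptor, was at 1551, 1176, 887, 816, 1106 and 679 CPM, and Runx2 at 287, 181, 166, 158, 190.4 and 101 CPM. Culture 1 was highest for both and for Gdnf, as it was for Jun and Sox2. Other genes of the list differed: Olig1, Bdnf, Artn, Lif, Ccl2 and Igfbp2 were highest in culture 5, where Jun was lowest. Gap43 was highest in culture 3, Shh in culture 4 and Ncam1 in culture 6. Gdnf, a trophic factor of repair cells, was at 92.9 to 135 CPM, and Shh at 7.03 to 24.6 CPM. Artn, Lif and Ccl2 were higher with the fibroblast score at an unadjusted exact permutation p under 0.05, and 0 of the 11 were lower. The shares over all tested genes were 11.5% higher and 8.34% lower. Lif ranged from 7.97 CPM in culture 1 to 70.6 CPM in culture 5.

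**Figure D5:**
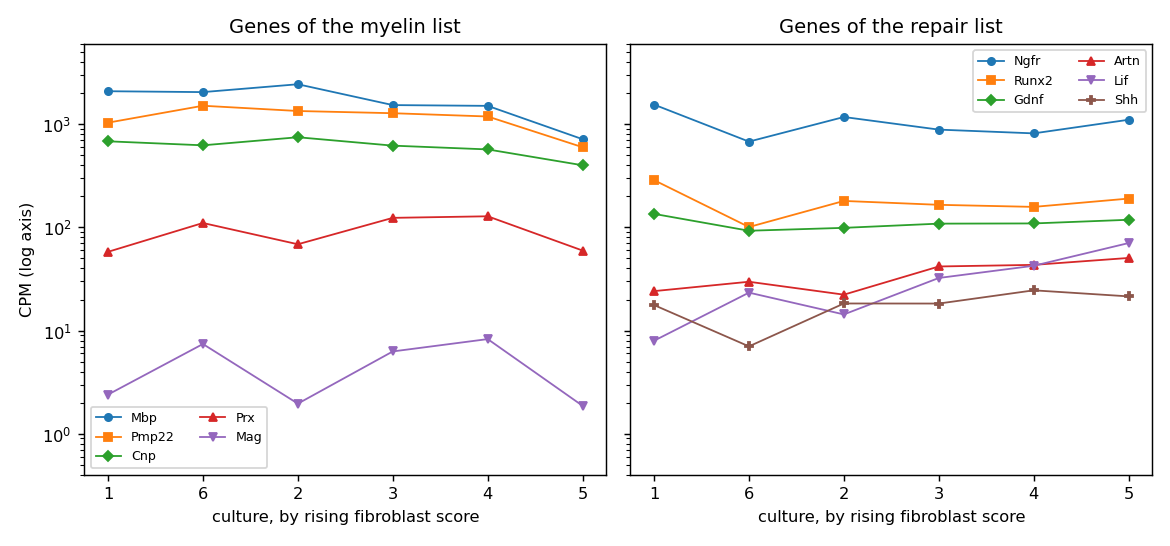
CPM on a log axis of 5 genes of the myelin list and 6 of the repair list, with cultures ordered by rising fibroblast score. Mbp, Pmp22 and Cnp are lowest in culture 5, Lif and Artn are highest there, and Ngfr and Runx2 are highest in culture 1.

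The genes whose pattern over the 6 cultures was most like a member's were named as the 3 with the highest Pearson's r of log2 CPM, among 8089 other genes at 20 CPM or more. With so few cultures many genes come close: between 25 genes for Id2 and 97 for Zeb2 had r of at least 0.95. Sox10 was most like Stx17, Bicra and Map3k11, with r from 0.985 to 0.990. Foxd3 was most like Scaf4, Zfp36l1 and Dyrk1b, with r from 0.986 to 0.989. Tfap2a was most like Syne2, Ikbkb and Pla2g6, with r from 0.991 to 0.994. Zeb2 was most like Oip5os1, Zdhhc17 and Ascc2, with r from 0.989 to 0.996.

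Sox2 was most like Zfp266, Gm41910 and Rubcn, with r from 0.990 to 0.992. Jun was most like Slc25a44, Hbp1 and Mapkapk3, with r from 0.992 to 0.994. Id2 was most like Exoc7, Inafm2 and Mfsd13a, with r from 0.988 to 0.993. Egr2 was most like Lbp, Igf1 and Mms19, with r from 0.990 to 0.996. Lbp, the lipopolysaccharide binding protein, was at 4.14 CPM in culture 1 and 104 CPM in culture 5, and Igf1, insulin-like growth factor, at 4.31 and 88.2 CPM, wider ranges than that of Egr2, 2.01-fold.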

How the data were processed

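Gene expression was measured in 6 cultures by sequencing of stranded, poly-A selected libraries. The deposited table holds unscaled estimated counts per gene, with 13.4% to 14.7% of the values in a library not whole. The submitters' processing notes name GRCm38.p6, bcl2fastq 2.20.0.422, cutadapt 2.5, STAR 2.7.2b and featureCounts 1.6.4; settings for strand and shared reads are not given in the sources used here, so overlapping and antisense genes may share reads. The table has 0 further columns of per-sample values.

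CPM used column totals, and CPM per kb the deposited combined exon length. Rounded counts entered edgeR 4.0.16, with size factors of DESeq2 1.42.0 as an alternative, in R 4.3.3; filterByExpr kept 14998 genes, scaled by TMM. Spread was tested by chi-square with 5 degrees of freedom and by an edgeR quasi-likelihood fit of an intercept. Both were tested on simulated data. The simulated counts for the quasi-likelihood fit shared a single dispersion over genes, unlike these data, so they do not show its power here. Differences between genes used log2(CPM per kb + 0.1), and relations log2(CPM + 0.1). Exact permutations covered 64 sign patterns or 720 pairings. Relations with the fibroblast score were adjusted over all tested genes rather than over the 10 members, a change made after the data were seen.

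The members and lists were chosen with earlier results of these data known. Named genes were the members, the listed genes, overlapping genes and, for members at 5 CPM or more, the 3 most alike genes. Intervals and limits of 3 counts cover counting error only. Alternatives were other scalings, pseudocounts, no filter, thinning and leaving out each culture.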

Additional observations from a re-analysis of the deposited data

How the results depend on the processing

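Each alternative changed 1 choice. Of the alternative values for counts that answer a comparison, 56 stayed within 1.5 times and 2 did not: the number of members related to the fibroblast score at an unadjusted exact permutation p under 0.05 was 4 and lay between 2 and 7 with single cultures left out, 2 without culture 5 and 7 without culture 2. With 5 cultures the sign-flip test cannot go below 0.0625, so there only the order was compared, and it held for 43 or 44 of the 45 pairs. Without division by length 39 pairs stood in 1 order in all 6 cultures, some of them in the reverse of the order per kb. Of neighbours, 3 pairs turned: Jun minus Zeb2 was -0.87, Id2 minus Sox2 -0.46 and Foxd3 minus Egr2 -0.32 on the log2 scale. Sox10 and Zeb2 turned too, with Zeb2 above Sox10 in CPM in every culture (1323 against 648 CPM in culture 1). Among neighbours, Sox10 minus Jun (0.08) and Egr2 minus Tfap2a (0.52) kept their direction and lost the call. Sox2 with Egr2, Id2 with Egr2 and Id2 with Foxd3 had no single order in CPM.

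Relations near 0 changed sign. For Id2 with the fibroblast score r was 0.027 with column totals in place of TMM, 0.0031, 0.57 and 0.067 without cultures 2, 5 and 6, and between -0.94 and 0.57 over all cultures left out. For Pax3 it was 0.32 and 0.0045 without cultures 1 and 4, and between -0.69 and 0.32 over all. With no filter, 13488 of 26854 genes varied beyond counting noise (50.2%), Pax3 among them. No paired analysis was possible because all samples belong to 1 group. Depth limits Pax3 and Pou3f1 most, at 4 to 21 and 18 to 89 counts per culture.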
